A study of Astyanax mexicanus with 12 samples.

Results

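The circadian clock is a set of genes that regulate one another in a daily cycle, and its transcripts were measured here in livers of the fish Astyanax mexicanus, a species with an eyeless form that lives in caves and a form with eyes that lives in surface waters. Of 50 clock gene names listed, 45 named a gene in the deposited table of 27420 genes, and these 45 are described here. The names cry3a, nfil3-2, fbxl3b, fbxl21 and btrc matched no gene name and were not analysed here. The 45 genes comprised 6 of the activating arm, 14 of the repressing arm, 2 relatives of the cryptochromes, 10 of the ROR and REV-ERB arm, 9 of the PAR bZIP output arm, and 4 kinase or ubiquitin ligase genes. Genes are called activators or repressors below by the arm they were listed in. Whether each product, such as that of cry4, acts in that way was not tested. Of these 45, 42 reached the level set for testing, and timeless, nr1d4a and csnk1e did not.

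In the vertebrate clock, CLOCK or NPAS2 pairs with ARNTL (also called BMAL) and switches on the per and cry genes, whose proteins then block that pair. A further loop runs through the nuclear receptors ROR, which activate arntl genes, and REV-ERB (the nr1d genes), which repress them. The PAR bZIP factors DBP, TEF and HLF pass the rhythm on to output genes, many of them metabolic genes of the liver, and NFIL3 represses through the same DNA element. Because these transcripts rise and fall over the day, a level at 1 time point depends on the hour, but neither the hour of dissection nor the light regime is stated in the labels. The part of the hour in each difference below was not tested.

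Each of the 4 groups held 3 adult livers. Cave wild livers came from wild-caught cavefish titled Pachón, cave lab livers from laboratory cavefish of the same title, and surface wild and surface lab livers from wild-caught and laboratory surface fish. All fish were fasted for 12 h before dissection, per the labels. The labels state neither the source of the laboratory stocks nor any pooling of fish, so wild-caught against laboratory also stands for any difference in stock, and p-values measure only the spread between these livers. The comparisons ask how clock transcripts differ between the forms in each environment, and how the 2 environments differ within each form.

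Levels are in TPM, transcript units scaled for transcript length and to a common total per library. Differences are log2 differences of TPM + 1 with their standard error (SE) from limma, with p adjusted over the 12895 genes tested, and a gene is said to differ where adjusted p is under 0.05. Adding 1 understates the change of low genes. The read depth of these values is unknown, since TPM does not retain it. The 16 hepatocyte markers found of 21 listed summed to between 95797 and 167129 TPM in every liver, with none at 0 in any group, and the 3 surface wild livers (95797 to 103038 TPM) lay below all others (at least 130477 TPM). Because a few abundant transcripts can press down all others in TPM, each difference was also computed after median-of-ratios scaling, which centres each library on its typical gene. The scaling factors were 0.58 to 0.71 in cave wild, 1.25 to 1.39 in cave lab, 0.96 to 1.11 in surface wild and 0.99 to 1.42 in surface lab livers. It moved the median of all genes from -0.46 to -0.03 between wild-caught forms and from -0.69 to 0.01 between cave fish of the 2 environments. Statements below that groups overlap or do not overlap refer to TPM before this scaling, unless scaling is named. Surface wild libraries 1 and 2 lay apart from the rest on the first principal component (36.8% of the variance), at -113 and -101 against -37.3 for library 3. In bulk livers, fewer cells of a type and less RNA per cell cannot be told apart.

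Most clock genes were expressed at a few TPM. The highest mean over the 12 livers was that of tefb, a PAR bZIP factor, at 69.0 TPM. In the other arms the highest means were those of ciartb (22.2 TPM) among repressors, csnk1db (18.3 TPM) among kinases, arntl1b (10.2 TPM) among activators and nr1d2b (7.59 TPM) among nuclear receptors. The cryptochrome relatives cry5, a photolyase in zebrafish, and cry-dash were low, and cry-dash had the higher mean, 1.54 TPM, at 0.78, 1.2 and 1.7 TPM in cave wild livers, 0.74, 2.28 and 2.02 in cave lab, 2.17, 2.28 and 1.86 in surface wild and 1.33, 1.97 and 0.19 in surface lab livers. Of the 3 genes not tested, timeless lay between 0.17 and 1.23 TPM, nr1d4a between 0 and 3.13 TPM and csnk1e between 0 and 0.34 TPM. Summed over the 45 genes, clock transcripts came to 173.1 to 289.0 TPM in cave wild, 561.3 to 787.2 in cave lab, 244.0 to 262.5 in surface wild and 369.6 to 411.2 in surface lab livers. The cave lab livers were thus the highest by this sum, without overlap with any other group.

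**Figure D1:**
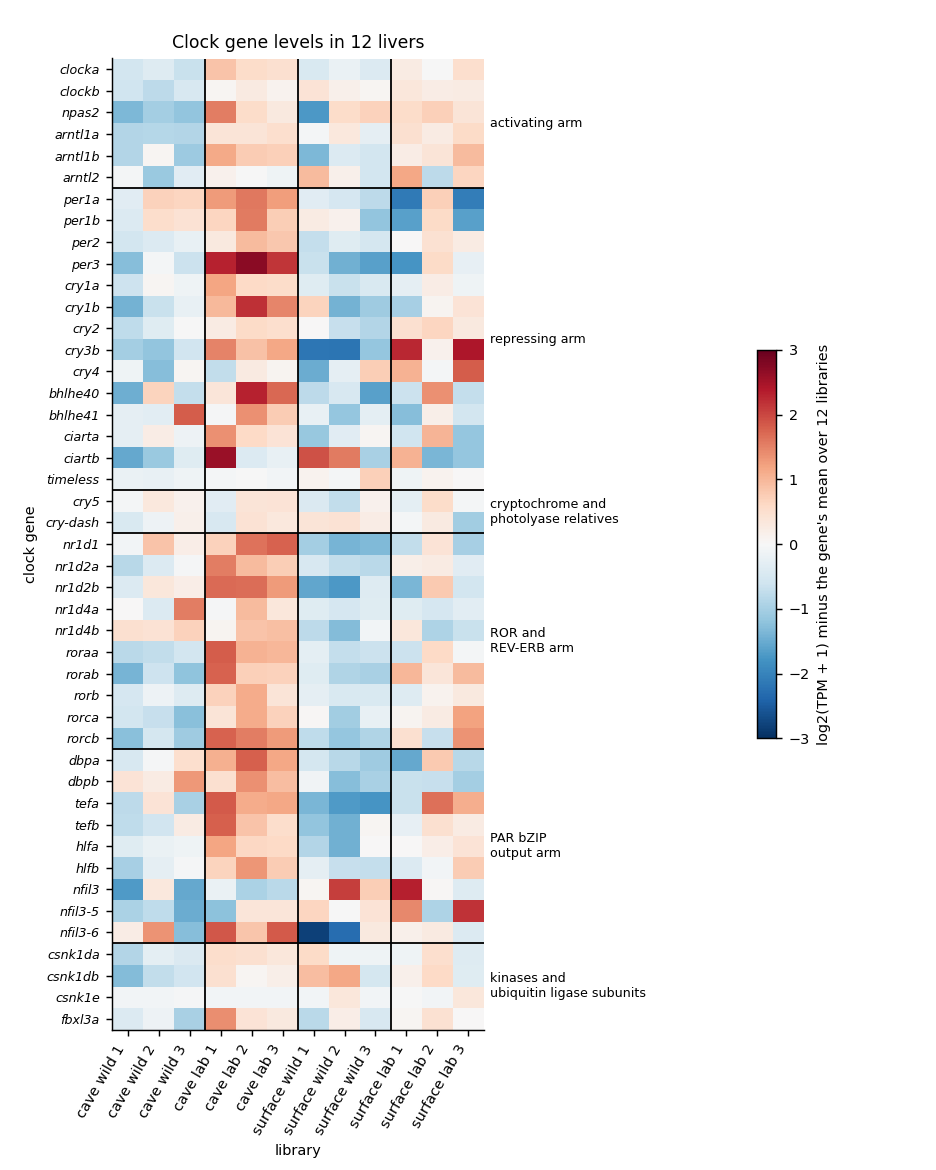
Levels of the 45 clock genes (rows, by arm) in each of the 12 livers (columns), as log2(TPM + 1) minus the mean of that gene over the 12 livers. Red is above and blue below that mean, and per3 stands out in the 3 cave lab livers, at 16.68 to 24.87 TPM.

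Between the forms, the clock genes called higher in cave livers in the mean of both environments were REV-ERB genes, dbp genes and 2 of the per genes. In that mean, 8 of the 42 tested clock genes were higher in cave livers (19.0%) and 2 were lower (4.76%). The share called was thus 23.8%, against a background of 22.7% of all genes (7.97% higher and 14.7% lower). The 8 were per1a, per3, nr1d1, nr1d2a, nr1d2b, nr1d4b, dbpa and dbpb, and the 2 were clockb and nfil3. After median-of-ratios scaling 12 were higher and 0 lower, against 10.4% higher and 8.30% lower among all genes: the same 8 with per1b, cry1a, bhlhe41 and nfil3-6. The median log2 difference of the clock genes was 0.43 against -0.18 for all genes tested, and 0.48 against -0.02 after scaling. Without surface wild libraries 1 and 2, which lie apart, 3 were called, and leaving out each library in turn gave 6 (without cave lab 2) to 14 (without surface wild 3).

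In laboratory fish 7 of 42 clock genes were higher in cave livers and 0 were lower, 16.7% called against a background of 7.55% (5.26% higher and 2.30% lower). They were per1a, per3, nr1d1, nr1d2b, roraa, dbpa and dbpb, and median-of-ratios scaling called the same 7, against 5.89% of all genes (3.48% higher). Of them, roraa reached 1 TPM in fewer than 3 livers outside the cave lab group, as did rorb and rorcb, so these genes entered the tests through the group where they were high. Without such genes 6 of 39 clock genes were called, 15.4% against 5.48% of all genes. For 15 clock genes the 3 cave lab livers all exceeded the 3 surface lab livers, and for 0 the reverse held, against 18.7% and 8.73% of all genes. The 15 include roraa and rorb, which entered the tests through the cave lab livers. Both the count and the shares of all genes hold genes of that kind, so they are a description. The count fell to 2 without cave lab 2 or surface lab 1, to 3 without cave lab 1, cave lab 3 or surface lab 3, and stood at 10, 9 of them higher, without surface lab 2.

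In wild-caught fish 3 clock genes were higher in cave livers, nr1d1, nr1d4b and dbpb, and 3 were lower, clockb, arntl1a and csnk1db, so 14.3% were called against a background of 31.6% (5.13% higher and 26.5% lower). The split differed with the scaling: with median-of-ratios factors 8 were higher (cry1a, nr1d1, nr1d2a, nr1d2b, nr1d4b, dbpa, dbpb and tefa) and 0 lower, against backgrounds of 10.1% and 7.85%. On the TPM scale the wild-caught forms did not overlap for 5 clock genes that were higher and 6 that were lower in cave livers, against 7.61% and 37.2% of all genes. The median of the clock genes was 0.14 on the TPM scale against -0.46 for all genes, which is 0.60 above it. None of the 6 calls on the TPM scale held in every fit that left out a library. The count was 1 without surface wild 2, 2 without cave wild 2, 3 without cave wild 3, and 10 without surface wild 3 or surface lab 2. It was 0 without surface wild 1 and 2 together, where 1 surface wild liver remained and its spread was taken from the other groups. With all 12 libraries no clock gene passed for a form difference that depends on the environment, as given with the interaction below.

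**Figure D2:**
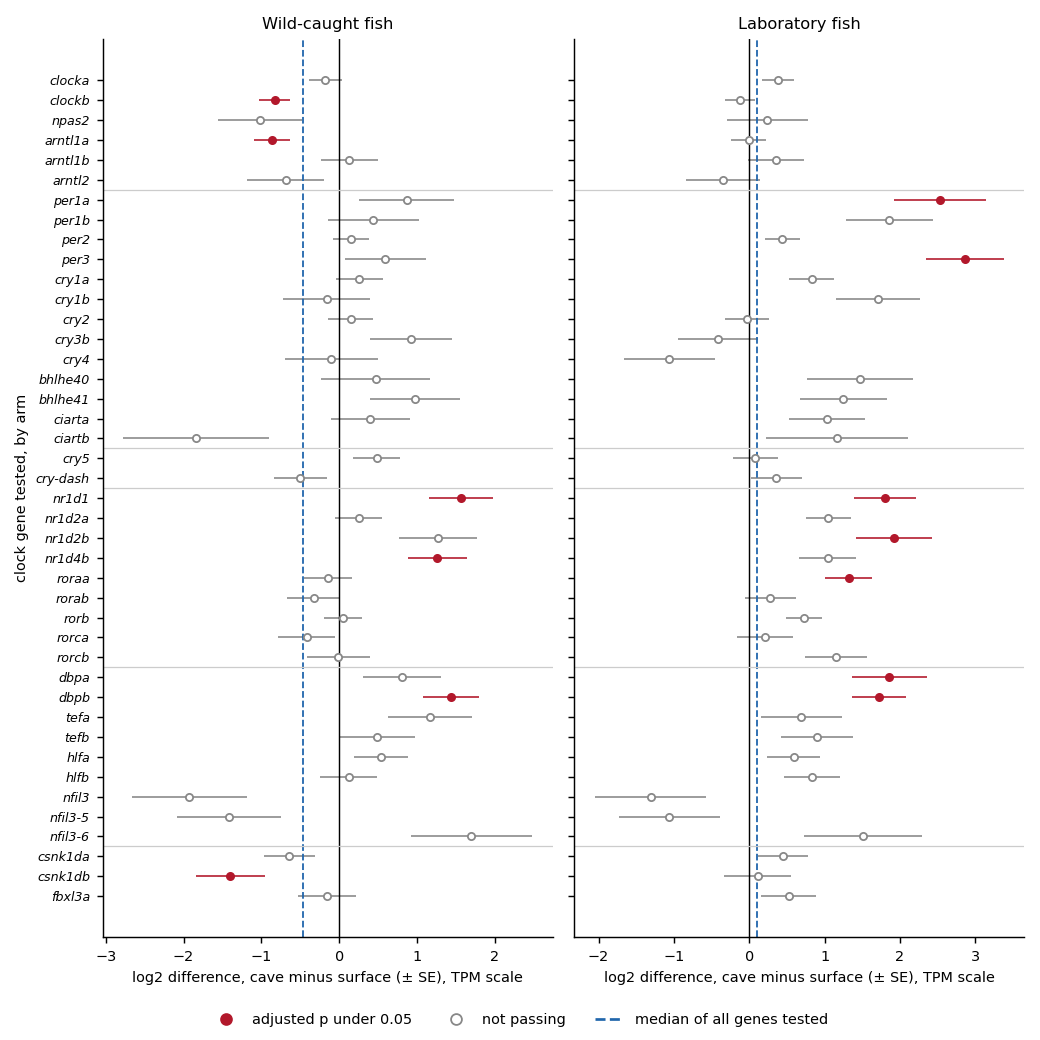
Log2 difference between cave and surface livers (points, with bars of 1 SE) for the 42 tested clock genes in wild-caught fish (left) and laboratory fish (right), on the TPM scale. Filled red points have an adjusted p under 0.05, and the dashed line is the median of all genes tested, -0.46 in wild-caught and 0.10 in laboratory fish. The 7 filled points of the laboratory panel all lie to the right of 0, with roraa among them, which entered the tests through the cave lab livers, and the wild-caught panel has 3 on each side.

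Among the REV-ERB genes, nr1d1 (ENSAMXG00000015855), which encodes REV-ERB alpha, stood at 5.16, 10.72 and 6.47 TPM in cave wild livers, 9.52, 19.14 and 21.01 in cave lab, 2.2, 1.46 and 1.61 in surface wild and 2.93, 7.69 and 2.26 in surface lab livers. All cave wild livers lay above all surface wild livers, and all cave lab above all surface lab livers. The gene was higher in cave livers in wild-caught fish (log2 difference 1.57 ± 0.41, adjusted p = 0.0172), in laboratory fish (1.80 ± 0.41, adjusted p = 0.0191) and in their mean (1.68 ± 0.29, adjusted p = 0.00259). The call on the mean held in every fit that left out a library. In wild-caught fish it was lost without cave wild 2 or surface wild 2 (adjusted p = 0.0595 to 0.0677), and in laboratory fish without cave lab 2 or 3 or surface lab 1 or 3 (adjusted p = 0.0676 to 0.0840). After median-of-ratios scaling the differences were 2.16 and 1.61.

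Its paralogue nr1d2b stood at 3.81, 7.07 and 6.26 TPM in cave wild livers, 19.71, 19.23 and 14.26 in cave lab, 1.15, 0.93 and 3.83 in surface wild and 1.47, 9.98 and 3.37 in surface lab livers. The cave lab livers lay above all others, while surface lab 2 and surface wild 3 stood above the rest of their groups. It was higher in cave livers in laboratory fish (log2 difference 1.92 ± 0.50, adjusted p = 0.0372) and in the mean (1.59 ± 0.35, adjusted p = 0.0109), but in wild-caught fish it did not pass on the TPM scale (1.27 ± 0.50, adjusted p = 0.0702) and passed after scaling (1.83, adjusted p = 0.0208). The laboratory call was lost without cave wild 3, cave lab 1, 2 or 3 or surface lab 1 or 3 (adjusted p = 0.0553 to 0.149). The third, nr1d2a, stood at 2.99, 4.31 and 5.92 TPM in cave wild livers, 19.55, 12.74 and 10.75 in cave lab, 4.05, 3.25 and 3.02 in surface wild and 6.97, 7.33 and 4.64 in surface lab livers. The cave lab livers were again the highest and the cave wild livers overlapped the surface livers. Of the comparisons of forms it passed on the TPM scale in the mean of both environments alone (log2 difference 0.65 ± 0.21, adjusted p = 0.0471), not with the replicate number as a block (adjusted p = 0.0613), and that call was kept in 1 of 12 fits that left out a library, with adjusted p = 0.0372 to 0.106.

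The teleost gene nr1d4b, a further member of the nr1d family, stood at 3.46, 3.32 and 4.16 TPM in cave wild livers, 2.4, 4.83 and 5.03 in cave lab, 0.86, 0.29 and 2.01 in surface wild and 3.05, 0.68 and 1.03 in surface lab livers. All cave wild livers exceeded all surface wild livers, and surface lab 1 overlapped the cave lab livers. It was higher in wild-caught cave livers (log2 difference 1.26 ± 0.38, adjusted p = 0.0285) and in the mean (1.15 ± 0.27, adjusted p = 0.0140). The mean held in every fit that left out a library, and the wild-caught call was lost without cave wild 1, 2 or 3 or surface wild 1 or 2 (adjusted p = 0.0628 to 0.112). Its paralogue nr1d4a, not tested, had means of 1.22 ± 1.67 and 0.987 ± 0.712 TPM (SD, n = 3) in cave wild and cave lab livers, against 0.0700 ± 0.0608 and 0.0833 ± 0.0737 in surface wild and surface lab livers, with cave wild 3 alone at 3.13 TPM.

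Of the ROR genes, which encode the activators opposed to REV-ERB, roraa differed most between laboratory forms. It stood at 0, 0.05 and 0.19 TPM in cave wild livers, 5.13, 2.57 and 2.48 in cave lab, 0.42, 0.06 and 0.11 in surface wild and 0.11, 1.63 and 0.67 in surface lab livers. Cave wild livers were at or near 0, and all cave lab livers exceeded all others. The log2 difference in laboratory fish was 1.32, given as a description, since only 1 liver outside the cave lab group, surface lab 2, reached 1 TPM. The differences of the other 4 ROR genes between laboratory forms ran from 0.21 to 1.15, and none passed.

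Of the repressors, per3 had the largest difference of any clock gene in laboratory fish. It stood at 0.64, 2.82 and 1.57 TPM in cave wild livers, 18.92, 24.87 and 16.68 in cave lab, 1.53, 0.46 and 0.28 in surface wild and 0.18, 4.94 and 2.39 in surface lab livers. The cave lab livers lay far above every other liver, while the cave wild livers overlapped both surface groups. The difference between laboratory forms was 2.86 ± 0.52 (adjusted p = 0.00495) and held in each of the 12 fits that left out a library (2.22 to 3.38). In wild-caught fish it was 0.59 ± 0.52 (adjusted p = 0.399), and in the mean of both environments 1.73 ± 0.37 (adjusted p = 0.00876).

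The gene per1a (ENSAMXG00000019909), which like per3 encodes a partner of the cryptochromes, stood at 2.74, 6.7 and 6.39 TPM in cave wild livers, 10.45, 13.17 and 10.37 in cave lab, 2.78, 2.36 and 1.75 in surface wild and 0.1, 6.78 and 0.13 in surface lab livers. Surface lab 1 and 3 were almost without it, and surface lab 2, at 6.78 TPM, stood just above the highest cave wild liver. It was higher in cave lab than surface lab livers (log2 difference 2.53 ± 0.61, adjusted p = 0.0248) and in the mean (1.70 ± 0.43, adjusted p = 0.0188). The laboratory call was lost without cave lab 1, 2 or 3 or surface lab 1 or 3 (adjusted p = 0.0638 to 0.108), and without surface lab 2 the difference was 3.46 (adjusted p = 1.2e-04). Its paralogue per1b had the same split in surface lab livers, at 0.13, 4.19 and 0.13 TPM, against 4.41, 9.23 and 4.76 in cave lab livers. It did not pass in laboratory fish (1.86 ± 0.58, adjusted p = 0.0771), and passed with the replicate number as a block (adjusted p = 0.0360) and without surface lab 2 (2.6 ± 0.46, adjusted p = 0.00723).

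The remaining repressors did not differ between forms on the TPM scale in any of the 3 comparisons of cave with surface livers. Their differences in laboratory fish ran from -1.06 for cry4 to 1.86 for per1b, and in wild-caught fish from -1.84 for ciartb to 0.97 for bhlhe41. The most abundant of them, ciartb, which encodes a repressor known as CHRONO, stood at 3.97, 5.64 and 10.12 TPM in cave wild livers, 85.77, 9.87 and 11.27 in cave lab, 53.05, 41.64 and 6.25 in surface wild and 28.39, 4.54 and 5.41 in surface lab livers. Cave lab 1, surface wild 1 and 2 and surface lab 1 were high, and no comparison passed.

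In the output arm, dbpb was the clock gene that separated the forms without overlap across all 12 livers. It stood at 3.44, 3 and 7.26 TPM in cave wild livers, 3.72, 7.63 and 5.4 in cave lab, 2.12, 0.38 and 0.7 in surface wild and 1.13, 1.06 and 0.66 in surface lab livers. The lowest cave liver, at 3 TPM, lay above the highest surface liver, at 2.12 TPM. No overlap over all 12 livers in this direction held for 1.51% of all genes. It was higher in cave livers in wild-caught fish (log2 difference 1.44 ± 0.36, adjusted p = 0.0153), in laboratory fish (1.72 ± 0.36, adjusted p = 0.0124) and in the mean (1.58 ± 0.26, adjusted p = 0.00177), with 1.98, 1.5 and 1.74 after median-of-ratios scaling. The mean held in every fit that left out a library and without surface wild 1 and 2 together. In wild-caught fish the call was lost without cave wild 3 or surface wild 2 (adjusted p = 0.0539 to 0.0633), and in laboratory fish without cave lab 2 (adjusted p = 0.0563).

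Its paralogue dbpa stood at 2.61, 3.97 and 6.22 TPM in cave wild livers, 9.56, 16.54 and 10.22 in cave lab, 2.54, 1.84 and 1.41 in surface wild and 0.74, 7.75 and 1.84 in surface lab livers. The wild-caught forms did not overlap, nor did the laboratory forms, although surface lab 2, at 7.75 TPM, stood close to the cave lab livers and above all cave wild livers. It was higher in laboratory cave livers (log2 difference 1.86 ± 0.50, adjusted p = 0.0407) and in the mean (1.33 ± 0.35, adjusted p = 0.0218). The laboratory call was kept in 3 of 12 fits that left out a library, with adjusted p up to 0.162 without surface lab 1, and the call on the mean was lost without cave wild 3 or cave lab 2 (adjusted p = 0.0512 to 0.0514). In wild-caught fish it passed only after median-of-ratios scaling (1.35, adjusted p = 0.0469).

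The repressor of the same element, nfil3, was lower in cave livers on the TPM scale. It stood at 2.25, 12.13 and 2.64 TPM in cave wild livers, 8.21, 4.49 and 5 in cave lab, 10.03, 43.16 and 16.62 in surface wild and 51.9, 9.81 and 7.09 in surface lab livers. The highest livers were surface lab 1 and surface wild 2, and the cave wild group held both the lowest liver and, in cave wild 2, the highest cave liver. The call was on the mean of both environments (log2 difference -1.62 ± 0.53, adjusted p = 0.0451), not after median-of-ratios scaling (-1.40, adjusted p = 0.0830), and the call was kept in 4 of 12 fits that left out a library (up to adjusted p = 0.10). With the replicate number as a block adjusted p was 0.0505. The related nfil3-6 was the most abundant nfil3 gene, at 24.05, 52.85 and 7.83 TPM in cave wild livers, 76.14, 36.99 and 74.86 in cave lab, 2.04, 3.35 and 25.09 in surface wild and 22.59, 24.54 and 15 in surface lab livers. Surface wild 1 and 2 were far below the rest. Its form difference in the mean was 1.61 ± 0.55 (adjusted p = 0.0531) and passed after scaling (1.83, adjusted p = 0.0455), opposite in sign to nfil3. The third, nfil3-5, gave -1.24 ± 0.48 (adjusted p = 0.0779).

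Among the activators, arntl1a and clockb were lower in wild-caught cave than wild-caught surface livers on the TPM scale and not after median-of-ratios scaling. The gene arntl1a, a BMAL1 gene, stood at 2.11, 2.15 and 2.1 TPM in cave wild livers, 6.44, 6.41 and 7.04 in cave lab, 4.48, 6.04 and 3.72 in surface wild and 6.91, 5.75 and 7.46 in surface lab livers. The 3 cave wild livers were nearly equal and below the lowest of all other livers. Its difference between wild-caught forms was -0.86 ± 0.23 (adjusted p = 0.0173), -0.36 after scaling (adjusted p = 0.293), and was lost without cave wild 2 or surface wild 2 (adjusted p = 0.0528 to 0.0703). For clockb the values were 1.52, 1.22 and 1.71 TPM in cave wild livers, 3.01, 3.62 and 3.08 in cave lab, 4.06, 3.23 and 2.97 in surface wild and 3.82, 3.47 and 3.5 in surface lab livers. Again the cave wild livers were below all others and the other 9 spanned 2.97 to 4.06 TPM. Its difference between wild-caught forms was -0.83 ± 0.20 (adjusted p = 0.0133), -0.38 after scaling (adjusted p = 0.186), and was lost without cave wild 2 (adjusted p = 0.0528). In the mean of both environments clockb was lower as well (-0.47 ± 0.14, adjusted p = 0.0332), a call kept in 2 of 12 fits that left out a library (up to adjusted p = 0.0820). In laboratory fish both were nearly level between forms, with differences of -0.01 ± 0.23 and -0.12 ± 0.20.

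The casein kinase gene csnk1db, whose product phosphorylates PER proteins, stood at 5.95, 9.28 and 10.54 TPM in cave wild livers, 22.88, 17.12 and 18.47 in cave lab, 31.69, 37.49 and 11.03 in surface wild and 18.13, 25.02 and 12.35 in surface lab livers. Surface wild 1 and 2 were the highest livers. It was lower in wild-caught cave livers (log2 difference -1.40 ± 0.44, adjusted p = 0.0321), not after scaling (-0.78, adjusted p = 0.160), and the call was lost without cave wild 1, 2 or 3 or surface wild 1 or 2 (adjusted p = 0.0538 to 0.121).

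Within a library, a factor common to all genes nearly cancels when arms are set against each other. The mean log2(TPM + 1) of 4 per genes minus that of the 6 activating genes was -0.28, 0.52 and 0.48 in cave wild, 0.10, 0.93 and 0.56 in cave lab, -0.34, -0.99 and -1.21 in surface wild, and -2.22, 0.10 and -1.82 in surface lab livers. In wild-caught fish the forms did not overlap, and in laboratory fish surface lab 2 reached the lowest cave lab liver. The same difference of the 4 tested REV-ERB genes minus the 5 ROR genes was 1.86, 2.01 and 2.33 in cave wild, 0.89, 1.35 and 1.53 in cave lab, 0.54, 0.73 and 1.15 in surface wild, and 0.67, 1.17 and -0.21 in surface lab livers. Cave wild livers lay above all others in this balance. Of its 5 ROR genes, roraa, rorb and rorcb entered the tests through the cave lab livers and were at 0.96 TPM or less in cave wild livers. The REV-ERB minus ROR balance is therefore a description. The 6 PAR bZIP genes minus the 3 nfil3 genes gave -0.15, -0.82 and 1.13 in cave wild, 0.57, 0.63 and -0.07 in cave lab, -0.48, -1.61 and -1.69 in surface wild, and -2.35, 0.14 and -0.81 in surface lab livers, and the forms overlapped in both environments. These balances were not tested. Median-of-ratios scaling moved them by at most 0.09, 0.45 and 0.05 in any library, since only the added 1 keeps the factor from cancelling.

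**Figure D3:**
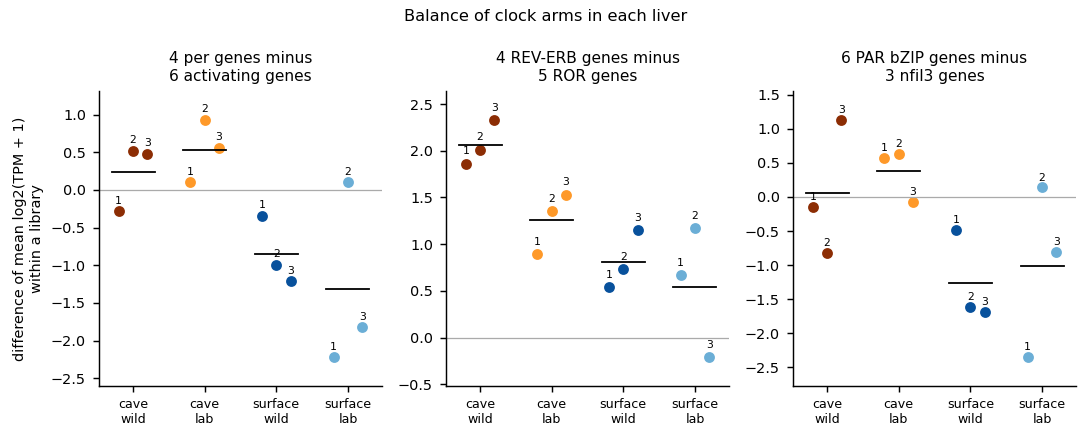
Within each liver, the mean log2(TPM + 1) of 1 set of clock genes minus that of another (vertical axis): per genes minus activating genes, REV-ERB minus ROR genes, and PAR bZIP minus nfil3 genes. Points are single livers numbered 1 to 3 and lines are group means. In the middle panel the 3 cave wild livers, at 1.86 to 2.33, lie above all others. The ROR genes of that panel include roraa, rorb and rorcb, which entered the tests through the cave lab livers.

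Between environments, the clock genes that passed were all lower in wild-caught fish with all 12 libraries, and their number depended on the form and the scaling. In cave fish 25 of 42 clock genes were lower in wild-caught livers and 0 higher on the TPM scale, 59.5% called against a background of 35.8% (34.3% lower). All 42 differences were below 0, with a median of -1.14 against -0.69 for all genes. After median-of-ratios scaling 4 were lower, per3, roraa, rorab and rorcb, against 7.28% of all genes (3.75% higher and 3.53% lower), 32 of 42 differences were below 0 and the median was -0.44 against 0.01. Relative to all genes the median was thus -0.45 on either scale. Without roraa, rorb and rorcb, 22 of 39 clock genes were lower on the TPM scale, 56.4% against 34.8% of all genes chosen likewise, and 2 after scaling, per3 and rorab, 5.13% against 6.80%. The 22 still hold clocka and per2, which entered the tests through the laboratory livers of both forms. By arm, on the TPM scale, 5 of 6 activators, 7 of 13 repressors, 7 of 9 ROR and REV-ERB genes (4 of 6 without roraa, rorb and rorcb), 4 of 9 output genes and 2 of 3 kinase and ligase genes were lower. For 29 clock genes the 3 wild-caught livers all lay below the 3 laboratory livers, against 56.6% of all genes (59.8% in either direction). The 29 include roraa, rorb and rorcb, which entered the tests through the cave lab livers. Both the count and the shares of all genes hold genes of that kind, so they are a description. Leaving out each library gave between 13 calls, without cave wild 1, and 28, without surface lab 2. Cave wild 1 had the lowest level of its group for 27 of the 42 genes, 64.3% against 47.4% of all genes.

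**Figure D4:**
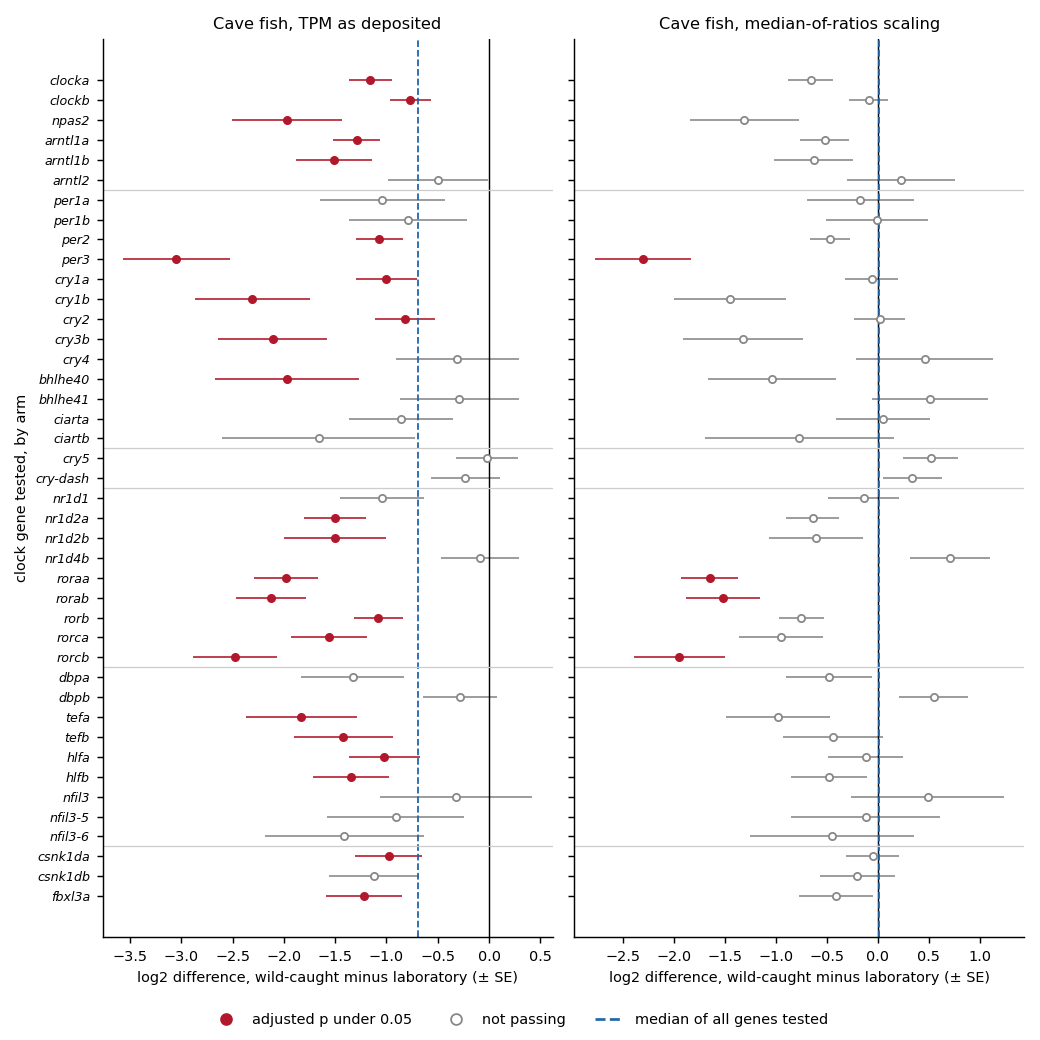
Log2 difference between wild-caught and laboratory cave livers (points, with bars of 1 SE) for the 42 tested clock genes, on the TPM scale (left) and after median-of-ratios scaling (right). Filled red points have an adjusted p under 0.05, 25 on the left and 4 on the right (with roraa and rorcb in both and rorb on the left, which entered the tests through the cave lab livers), and the dashed line is the median of all genes tested. On the left all 42 points lie below 0, and on the right 10 lie above it.

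Of the ROR genes, rorab and rorca were lower in wild-caught cave livers on the TPM scale, and both calls held in every fit that left out a library. For roraa, rorb and rorcb, which entered the tests through the cave lab livers, the levels are a description. The gene rorcb stood at 0.18, 0.96 and 0.34 TPM in cave wild livers, 8.58, 7.13 and 5.86 in cave lab, 0.65, 0.26 and 0.51 in surface wild and 2.91, 0.74 and 6.15 in surface lab livers. The cave lab livers exceeded all cave wild livers by a wide margin, and in surface lab livers the level ranged from 0.74 to 6.15 TPM. The log2 difference in cave fish was -2.48, and -1.95 after scaling. For rorab the values were 0.44, 1.46 and 0.65 TPM in cave wild livers, 11.91, 5.25 and 5.12 in cave lab, 1.94, 1.02 and 0.94 in surface wild and 6.57, 3.88 and 6.42 in surface lab livers. Both laboratory groups lay above both wild-caught groups. Its differences were -2.13 ± 0.34 in cave fish (adjusted p = 0.00225) and -1.52 ± 0.34 in surface fish (adjusted p = 0.0145). They were -1.52 and -1.40 after scaling, and both passed. The gene roraa, given above, differed by -1.98 in cave fish, and by -1.65 after scaling.

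The gene rorca passed in cave fish on the TPM scale and not after scaling. It stood at 1.18, 0.98 and 0.32 TPM in cave wild livers, 3.12, 5.88 and 4.1 in cave lab, 2.23, 0.54 and 1.72 in surface wild and 2.37, 2.75 and 6.36 in surface lab livers. The cave groups did not overlap, nor did the surface groups. In cave fish the difference was -1.56 ± 0.37 (adjusted p = 0.00934), and -0.95 after scaling (adjusted p = 0.172). The level of rorb was 0.08, 0.37 and 0.16 TPM in cave wild livers, 1.47, 2.31 and 1 in cave lab, 0.26, 0.11 and 0.11 in surface wild and 0.16, 0.65 and 0.88 in surface lab livers. It reached 1 TPM in the 3 cave lab livers alone. The log2 difference in cave fish was -1.08, and -0.75 after scaling. Of the REV-ERB genes, nr1d2a (-1.5 ± 0.30, adjusted p = 0.00470) and nr1d2b (-1.5 ± 0.50, adjusted p = 0.0361) were lower in wild-caught cave livers, and neither passed after scaling (adjusted p = 0.150 and 0.427). The nr1d2b call was lost without cave wild 1, 2 or 3 or cave lab 1, 2 or 3 (adjusted p = 0.0504 to 0.127). For nr1d1 and nr1d4b the values were -1.04 ± 0.41 (adjusted p = 0.0661) and -0.09 ± 0.38 (adjusted p = 0.873).

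Of the activators, arntl1b was the most abundant, at 4.28, 9.07 and 3.51 TPM in cave wild livers, 20.24, 15.49 and 14.91 in cave lab, 2.79, 6.34 and 5.63 in surface wild and 10.35, 11.64 and 17.63 in surface lab livers. In each form the wild-caught livers lay below the laboratory livers without overlap. It was lower in wild-caught fish of the cave form (-1.51 ± 0.37, adjusted p = 0.0109) and of the surface form (-1.29 ± 0.37, adjusted p = 0.0353). After scaling it was -0.63 in cave fish (adjusted p = 0.338) and -1.15 in surface fish (adjusted p = 0.0617). For clocka the levels were 0.51, 0.69 and 0.4 TPM in cave wild livers, 3, 2.21 and 2.11 in cave lab, 0.62, 0.92 and 0.67 in surface wild and 1.63, 1.19 and 2.14 in surface lab livers. Again the groups of the 2 environments did not overlap in either form. No wild-caught liver reached 1 TPM and every laboratory liver did, so clocka entered the tests through the laboratory livers. Its differences are therefore a description. They were -1.16 in cave fish and -0.60 in surface fish, and in cave fish -0.66 after scaling, where it did not pass.

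The CLOCK relative npas2 stood at 0.8, 1.25 and 0.99 TPM in cave wild livers, 12.26, 5.65 and 4.55 in cave lab, 0.37, 5.65 and 6.36 in surface wild and 5.7, 6.42 and 4.94 in surface lab livers. Cave wild livers and surface wild 1 were low, and cave lab 1 was the highest. In cave fish npas2 differed by -1.97 ± 0.54 (adjusted p = 0.0168), -1.31 after scaling (adjusted p = 0.153), and was lost without cave wild 1 or cave lab 1 (adjusted p = 0.0615 to 0.0655). For arntl1a and clockb, given above, the differences in cave fish were -1.29 ± 0.23 (adjusted p = 0.00285) and -0.77 ± 0.20 (adjusted p = 0.0134), and -0.52 and -0.09 after scaling (adjusted p = 0.191 and 0.817). The clockb call was lost without cave lab 2 (adjusted p = 0.0547). The sixth activator, arntl2, ranged from 1.02 to 8.72 TPM and passed in no comparison.

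Among the repressors, cry3b had the largest fall in wild-caught surface fish. It stood at 1.92, 1.61 and 2.96 TPM in cave wild livers, 15.54, 9.9 and 12.4 in cave lab, 0.32, 0.29 and 1.64 in surface wild and 27.39, 5.49 and 30.66 in surface lab livers. In both forms every wild-caught liver lay below every laboratory liver, with surface lab 2 well below surface lab 1 and 3. The difference was -3.45 ± 0.53 in surface fish (adjusted p = 0.00330) and held in every fit that left out a library, and it was -3.27 after scaling (adjusted p = 0.00795). In cave fish it was -2.11 ± 0.53 (adjusted p = 0.0115), and -1.32 after scaling (adjusted p = 0.188). As a mean of both forms it was -2.78 ± 0.37 (adjusted p = 6.7e-04). In per3, given above, cave fish differed by -3.05 ± 0.52 (adjusted p = 0.00259), the largest fall of a clock gene there, and by -2.31 after scaling (adjusted p = 0.0152). Surface fish differed by -0.78 ± 0.52 (adjusted p = 0.299).

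The gene per2, which light induces in zebrafish, stood at 0.75, 0.93 and 1.16 TPM in cave wild livers, 2.13, 3.9 and 3.43 in cave lab, 0.55, 0.96 and 0.77 in surface wild and 1.58, 2.5 and 1.99 in surface lab livers. The 2 environments did not overlap in either form. It was lower in wild-caught cave fish (-1.07 ± 0.23, adjusted p = 0.00572; -0.47 after scaling, adjusted p = 0.171) and surface fish (-0.78 ± 0.23, adjusted p = 0.0364; -0.66 after scaling, adjusted p = 0.0417). In surface fish the call was lost without cave lab 3, surface wild 1 or 2 or surface lab 2 or 3 (adjusted p = 0.0522 to 0.116). Of the wild-caught livers only cave wild 3 reached 1 TPM. As per2 thus entered the tests through the laboratory livers, its differences between environments are a description. Another gene that light induces in zebrafish, cry1a, stood at 9.72, 15.84 and 13.97 TPM in cave wild livers, 35.87, 23.54 and 22.93 in cave lab, 11.61, 9.34 and 10.96 in surface wild and 12.54, 18.05 and 14.03 in surface lab livers. The 2 environments did not overlap in either form. It was lower in wild-caught cave fish (-1.0 ± 0.30, adjusted p = 0.0239), not after scaling (-0.06, adjusted p = 0.924), and the call was lost without cave wild 1 or 3 or cave lab 1 (adjusted p = 0.0511 to 0.0939).

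For cry1b the levels were 2.17, 4.37 and 6.25 TPM in cave wild livers, 15.65, 37.39 and 22.53 in cave lab, 12.35, 2.19 and 3.05 in surface wild and 3.26, 8.03 and 10.15 in surface lab livers. The cave lab livers were higher than all others, with cave lab 2 the highest. The difference in cave fish was -2.31 ± 0.56 (adjusted p = 0.0105), -1.45 after scaling (adjusted p = 0.123), and was lost without cave wild 1 (adjusted p = 0.0525). The gene cry2 stood at 2.97, 4.22 and 5.61 TPM in cave wild livers, 6.94, 8.98 and 8.54 in cave lab, 5.7, 3.16 and 2.63 in surface wild and 8.27, 9.52 and 7.18 in surface lab livers. In each form all wild-caught livers were below all laboratory livers. Its difference was -0.82 ± 0.29 in cave fish (adjusted p = 0.0465) and turned to 0.02 after scaling (adjusted p = 0.972), and it was lost with the replicate block (adjusted p = 0.0655) or without cave wild 1 or 2, cave lab 1, 2 or 3, surface wild 2 or surface lab 1 or 3 (adjusted p = 0.0529 to 0.165). In surface fish it was -0.99 ± 0.29 (adjusted p = 0.0380) and -0.86 after scaling (adjusted p = 0.0363), and was lost without cave wild 2, cave lab 2 or 3, surface wild 2 or 3 or surface lab 1, 2 or 3 (adjusted p = 0.0504 to 0.111).

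The repressor bhlhe40, also called DEC1, stood at 4.38, 22.59 and 8.07 TPM in cave wild livers, 18.14, 72.5 and 47.92 in cave lab, 7.58, 9.56 and 3.74 in surface wild and 8.51, 37.13 and 8 in surface lab livers. Cave wild 2, cave lab 2 and 3 and surface lab 2 were high, so the cave groups overlapped. Its difference in cave fish was -1.97 ± 0.70 (adjusted p = 0.0444), -1.04 after scaling (adjusted p = 0.318), and was lost without cave wild 1 or 3, cave lab 2 or 3 or surface wild 1 (adjusted p = 0.0518 to 0.170). The repressors per1a, per1b, cry4, bhlhe41, ciarta and ciartb did not pass between environments in either form, with differences of -1.66 to -0.29 in cave fish and -1.27 to 1.33 in surface fish.

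In the output arm, tefb, tefa, hlfa and hlfb were lower in wild-caught cave fish on the TPM scale, and none after scaling. The most abundant, tefb, stood at 33.23, 38.19 and 67.93 TPM in cave wild livers, 201.09, 103.98 and 82.49 in cave lab, 24.57, 20.5 and 59.93 in surface wild and 48.3, 79.91 and 67.7 in surface lab livers. Cave lab 1 was the highest liver, and the cave groups did not overlap. Its difference was -1.42 ± 0.48 (adjusted p = 0.0375), -0.44 after scaling (adjusted p = 0.616), and was lost without cave wild 1 or 2 or cave lab 1 or 2 (adjusted p = 0.0712 to 0.140). For tefa the levels were 2.71, 7.61 and 2.28 TPM in cave wild livers, 22.19, 13.01 and 13.35 in cave lab, 1.48, 0.97 and 0.88 in surface wild and 3.03, 19.34 and 12.59 in surface lab livers. The surface wild livers were all below the lowest surface lab liver. The difference was -1.83 ± 0.54 in cave fish (adjusted p = 0.0224; -0.98 after scaling, adjusted p = 0.252) and -2.31 ± 0.54 in surface fish (adjusted p = 0.0169; -2.16 after scaling, adjusted p = 0.0190). The cave call was lost without cave wild 1 or 3 or cave lab 1 (adjusted p = 0.0774 to 0.0848), and the surface call without surface wild 2 or surface lab 2 or 3 (adjusted p = 0.0506 to 0.0569).

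The PAR bZIP gene hlfa stood at 6.05, 6.96 and 7.36 TPM in cave wild livers, 19.7, 12.88 and 12.71 in cave lab, 3.93, 2.38 and 8.09 in surface wild and 8.16, 9.39 and 11.09 in surface lab livers, and hlfb at 2.99, 5.55 and 6.83 TPM in cave wild livers, 11.58, 18.87 and 12.64 in cave lab, 5.56, 3.93 and 3.89 in surface wild and 4.95, 6.48 and 12.55 in surface lab livers. For hlfa the environments did not overlap in either form, and for hlfb surface wild 1 overlapped the surface lab livers. In cave fish the differences were -1.02 ± 0.35 for hlfa (adjusted p = 0.0388) and -1.35 ± 0.37 for hlfb (adjusted p = 0.0157), and -0.12 and -0.48 after scaling (adjusted p = 0.879 and 0.438). The hlfa call was lost without cave wild 1, 2 or 3 or cave lab 1, 2 or 3 (adjusted p = 0.0633 to 0.131). The hlfb call was lost without cave wild 1 or cave lab 2 (adjusted p = 0.0638 to 0.0724). Neither dbp gene passed between environments in either form in the main fit, and dbpb was level in surface fish (0.00 ± 0.36). In cave fish dbpa passed by limma with the replicate block (adjusted p = 0.0449) and on the 6 cave libraries alone (adjusted p = 0.0181). It also passed there without surface lab 1 (adjusted p = 0.0328) or surface lab 2 (adjusted p = 0.0123), and not after median-of-ratios scaling. The gene nfil3-6 was lower in the mean of both forms (-1.50 ± 0.55, adjusted p = 0.0448), not after scaling (-0.95, adjusted p = 0.238), and the call was kept in 3 of 12 fits that left out a library (up to adjusted p = 0.106) and lost with the replicate block (adjusted p = 0.0669).

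Of the kinase and ligase genes, csnk1da, a paralogue of csnk1db, stood at 7.85, 12.23 and 11.02 TPM in cave wild livers, 22.28, 21.48 and 19.44 in cave lab, 23.18, 13.85 and 13.7 in surface wild and 13.78, 21.93 and 11.45 in surface lab livers. The cave groups did not overlap. Its difference in cave fish was -0.98 ± 0.33 (adjusted p = 0.0365), -0.05 after scaling (adjusted p = 0.943), and was lost without cave wild 1 or 3 or cave lab 1, 2 or 3 (adjusted p = 0.0709 to 0.127). The gene fbxl3a, whose product marks cryptochromes for breakdown, stood at 3.18, 4.06 and 1.84 TPM in cave wild livers, 13.72, 6.41 and 5.92 in cave lab, 2.19, 5.49 and 3.01 in surface wild and 4.85, 6.67 and 4.7 in surface lab livers. Cave lab 1 was the highest liver. Its difference in cave fish was -1.22 ± 0.37 (adjusted p = 0.0242), -0.41 after scaling (adjusted p = 0.508), and was lost without cave wild 1 or 3 or cave lab 1 (adjusted p = 0.0627 to 0.0941).

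In surface fish 7 of 42 clock genes were lower in wild-caught livers and 0 higher, 16.7% called against a background of 18% (11.2% lower and 6.77% higher). They were arntl1b, per2, cry2, cry3b, rorab, rorcb and tefa. Median-of-ratios scaling called 5 of them, without arntl1b (-1.15, adjusted p = 0.0617) and rorcb (-1.24, adjusted p = 0.0714), against 8.85% lower and 9.48% higher among all genes. The median of the clock genes was -0.54 against -0.11 for all genes. On the TPM scale all 7 were also lower in wild-caught cave fish, which is 28.0% of the 25 there. After scaling rorab alone was called in both forms. However, rorcb among the 7, and roraa, rorb and rorcb among the 25, entered the tests through the cave lab livers. In addition, per2 in both sets and clocka among the 25 entered through the laboratory livers of both forms. For these genes the overlap is a description. With roraa, rorb and rorcb left out, 6 of 39 clock genes were lower in wild-caught surface fish. That is 15.4% against 17.6% called among all genes chosen likewise (11.1% lower). After scaling 5 were lower, 12.8% against 18.1% called (8.70% lower). Both counts still hold per2. Among all genes tested, 766 were lower in both, 17.3% of those in cave fish and 53.0% of those in surface fish. The group means of these comparisons share no library, but their calls rest on a common estimate of the spread from all 12 libraries. The 2 sets of calls are therefore not independent. With only the 6 surface libraries 0 clock genes were called. Only cry3b held in every fit that left out a library, where the count ran from 1 without surface wild 2 to 9 without surface wild 3, with 2 without surface lab 3, 3 without cave lab 3 and 4 without cave lab 2, surface wild 1 or surface lab 2. Without surface lab 2, 3 were lower and 1 was higher, per1a (1.55 ± 0.33, adjusted p = 0.0187). The rorab call was lost without surface wild 2 (adjusted p = 0.0511). The arntl1b call was lost without cave lab 2 or 3, surface wild 1 or 2 or surface lab 2 or 3 (adjusted p = 0.0517 to 0.129). For rorcb (-1.32 ± 0.41, adjusted p = 0.0460) it was kept in 1 of 12 fits. With the replicate number as a block 5 were called, without cry2 (adjusted p = 0.0540) and rorcb (adjusted p = 0.0578), and in surface libraries alone with that block 0.

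In the mean of both forms 26 of 42 clock genes were lower in wild-caught fish and 0 higher, 61.9% called against a background of 41.2% (35.9% lower). After scaling 12 were lower, against 12.7% lower among all genes. Without roraa, rorb and rorcb 23 of 39 were lower on the TPM scale, 59.0% against 40.1% called among all genes (35.0% lower), and 9 after scaling, 23.1% against 26.0% called (11.9% lower). Both counts still hold clocka and per2, which entered the tests through the laboratory livers of both forms. The shares of all genes can hold genes of that kind too, so these counts are a description. Of 15 hepatocyte markers tested, 9 were lower in the same comparison and 0 higher, with a median of -0.99 against -0.88 for clock genes, and 1 was lower and 2 higher after scaling. Their part in the clock differences was not tested. The smallest adjusted p values on the TPM scale were those of rorab (-1.83 ± 0.24, adjusted p = 6.5e-04) and cry3b. On the TPM scale, for 8 clock genes all 6 wild-caught livers lay below all 6 laboratory livers, against 10.0% of all genes: clocka, arntl1b, per2, cry2, cry3b, rorab, rorca and hlfa. After median-of-ratios scaling rorab alone of these stayed apart, at 2.07 or less in wild-caught and 2.74 or more in laboratory livers. The others overlapped, cry3b with 4.25 in cave wild 3 against 3.87 in surface lab 2. Of the 8, clocka and per2 entered the tests through the laboratory livers, so that count is a description.

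**Figure D5:**
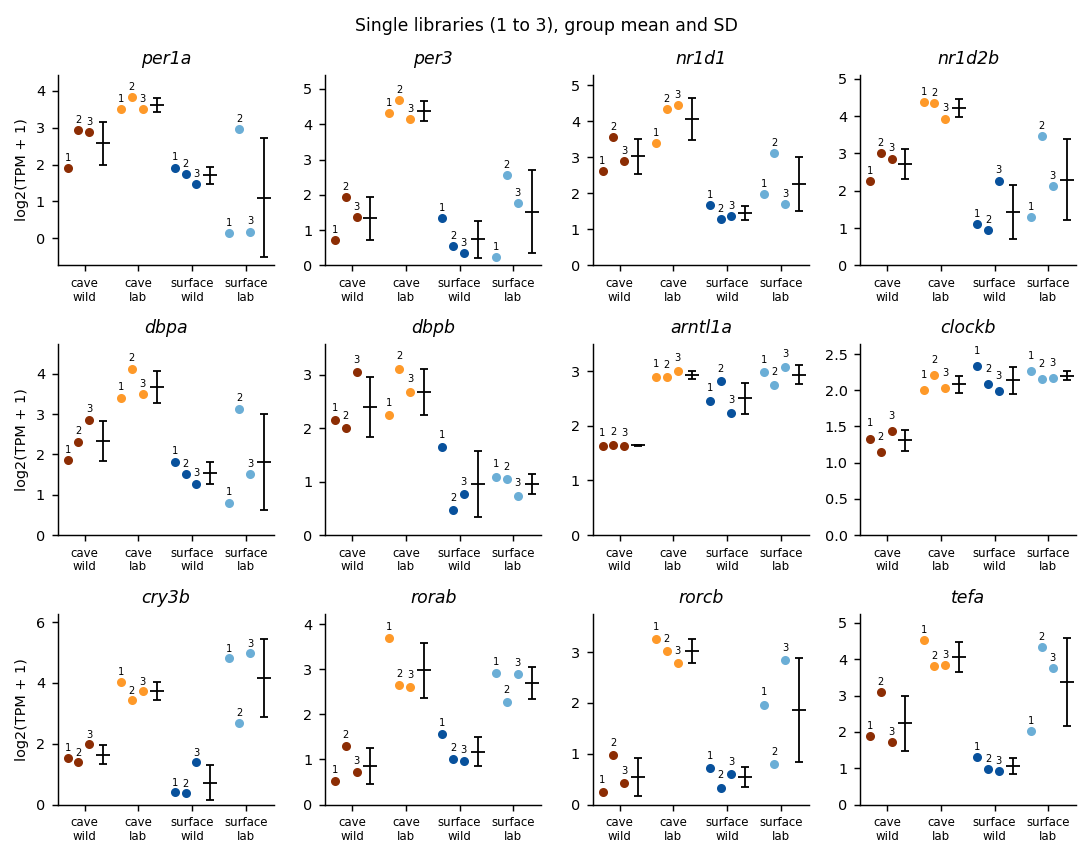
Levels of 12 clock genes as log2(TPM + 1) on the vertical axis in the 4 groups. Coloured points are single livers numbered 1 to 3, and the black mark and bar beside them are the group mean ± SD (n = 3). For dbpb all 6 cave livers lie above all 6 surface livers, and for cry3b and rorab all 6 wild-caught livers lie below all 6 laboratory livers. After median-of-ratios scaling, not drawn here, this no longer held for cry3b.

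The interaction asks whether the difference between forms depends on the environment. By limma 0 of 42 clock genes passed, against 5.08% of all genes, with 8 at an unadjusted p under 0.05 and 0 called after median-of-ratios scaling. For per3 the interaction was -2.27 ± 0.73 (adjusted p = 0.0763). Leaving out a library gave 5 calls without surface wild 3, 4 without surface lab 2, 1 without surface wild 1 and 0 otherwise. Without surface lab 2 they were per1a (-2.59 ± 0.44, adjusted p = 0.0150), per3, cry3b and roraa, the last of which entered the tests through the cave lab livers. The differences that passed in laboratory fish and not in wild-caught fish are therefore not shown to differ between the environments.

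The spread between livers of a group is given without a test. The median within-group SD on the log2 scale was 0.40 for clock genes against 0.31 for all genes in cave wild, 0.40 against 0.25 in cave lab, 0.52 against 0.45 in surface wild and 0.62 against 0.39 in surface lab livers. The clock genes with an SD above the median of all genes numbered 23 of 42 in surface wild livers, 26 in the surface lab group, 29 in the cave wild group and 31 in the cave lab group, and 30 over the pooled groups. Surface lab 2 was the highest of its group for 54.8% of clock genes against 57.3% of all genes, and the lowest for 26.2% against 14.6%. Levels were higher there for per1a, per1b, nr1d1, nr1d2b, dbpa, bhlhe40 (37.13 TPM against 8.51 and 8) and ciarta (17.69 against 5.12 and 3.16), and lower for cry3b, arntl2 (1.56 against 8.72 and 5.86), cry4 (4.16 against 10.1 and 17.88) and nfil3-5 (3.13 against 20.38 and 34.49). Cave lab 1 was the highest of its group for 21 of 42 clock genes, 50% against 36.4% of all genes.

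A list of partners of the clock proteins held kinases, phosphatases, acetylases and ligase subunits, with other genes such as id2b, nono and usp2b. Among the 31 partners tested, 15 were lower and 1 higher in wild-caught cave than surface livers, 51.6% called against 31.6% of all genes (26.5% lower). In wild-caught than laboratory cave livers 13 were lower and 1 higher, 45.2% against 35.8% (34.3% lower). Their medians were -0.90 and -0.76, against -0.46 and -0.69 for all genes. After scaling these counts were 3 lower and 2 higher of 31, against 17.9% of all genes called, and 0 lower and 1 higher, against 7.28% called. The gene that rose was id2b in both, which encodes an inhibitor of helix-loop-helix factors (3.26 ± 0.52, adjusted p = 0.00339 and 3.45 ± 0.52, adjusted p = 0.00182). Its mean in cave wild livers was 19.3 TPM with an SD of 16.3 (n = 3), so these livers varied widely. Every other group was low, the highest mean being 1.12 TPM (SD 0.590) for surface lab livers. For id2b, whether it entered the tests through the cave wild livers is not given here, nor are fits without a library. The same limit holds for its interaction below. The kinase gene gsk3aa was lower in cave livers in wild-caught fish (-1.57 ± 0.26, adjusted p = 0.00372) and in laboratory fish (-0.94 ± 0.26, adjusted p = 0.0480). The ligase subunit gene fbxw11a was lower in wild-caught cave livers (-2.14 ± 0.36, adjusted p = 0.00427), and its difference between forms depended on the environment (-2.42 ± 0.52, adjusted p = 0.0284; -1.85, adjusted p = 0.0629 after scaling), as did that of id2b (3.69 ± 0.74, adjusted p = 0.0221). The acetylase genes ep300a (-1.22 ± 0.23, adjusted p = 0.00378) and crebbpa (-1.36 ± 0.26, adjusted p = 0.00406) were lower in wild-caught than laboratory cave livers, not after scaling (adjusted p = 0.126 and 0.10). In surface fish 3 were lower and 0 higher in wild-caught livers, 9.68% against 18% of all genes (11.2% lower), among them the deubiquitinase gene usp2b (-2.30 ± 0.49, adjusted p = 0.0123) and the phosphatase gene ppp1caa (-1.24 ± 0.33, adjusted p = 0.0269), the latter not after scaling (-1.10, adjusted p = 0.0598).

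Markers of other cell types moved between groups as well, and their part in the clock differences was not tested. The summed level of 13 macrophage and leukocyte markers, of 20 listed, ran from 32.0 to 73.0 TPM in cave wild, 96.3 to 139 in cave lab, 101 to 116 in surface wild and 39.2 to 142 in surface lab livers. That of 6 red blood cell and thrombocyte markers, of 11, ran from 5.93 to 19.1, 42.8 to 57.9, 7.60 to 19.3 and 75.1 to 125 TPM in the same order. For 5 exocrine pancreas markers, of 17, the ranges were 719 to 1516, 181 to 1564, 888 to 8197 and 1063 to 3305 TPM, and for 18 bile duct, stellate and endothelial markers, of 21, they were 421 to 901, 484 to 514, 330 to 1612 and 594 to 957 TPM. None of these markers was at 0 in all livers of a group.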

How the data were processed

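Poly(A) RNA of 12 livers was sequenced as single reads of 75 nt from stranded libraries, per the labels' protocols. The authors deposited TPM per Ensembl gene and library; the file name and the submitters' processing notes name RSEM, and the notes name STAR 2.6.1c and bcl2fastq 2.18. For the RSEM version, genome build, annotation and strand setting, no source used here gives a value, and positions are left out. RSEM shares reads between near-identical copies, so levels of paralogue pairs (the a and b genes) are uncertain where reads could fit both.

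Values were analysed as log2(TPM + 1). The tests covered the 12895 genes that reached 1 TPM in 3 or more of the 12 libraries. Counts were also made, after seeing the values, without genes that reached 1 TPM in all 3 livers of a group and in fewer than 3 livers elsewhere. That rule leaves in genes that entered through both laboratory groups together, such as clocka and per2. A model of 4 group means was fitted to all 12 libraries in R 4.3.3 with limma 3.58.1 (eBayes with trend). Tests were two-sided, with Benjamini-Hochberg adjustment over all tested genes within each of 7 comparisons and 0.05 as threshold. The fit was tested on simulated data with independent libraries, where known shifts were put into single genes of the cave lab group. That simulation held no shift common to a whole library, so it does not bear on the choice of scaling. Genes were matched by the table's names without regard to case. Each clock gene that passed in at least 1 comparison, or had the highest mean of its arm, is given in every library, and for the other lists the 2 called genes with the smallest adjusted p per comparison could be named. The members and lists were chosen with earlier results of these data known.

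The labels do not say what replicate numbers pair. Residuals of same-numbered surface wild and surface lab libraries correlated at 0.153, 0.111 and 0.271, all above 0.1. Over the 18 such pairs of all groups the range was -0.207 to 0.271, and cave wild 1 with surface wild 1 gave 0.110. These correlations do not establish a pairing. The main fit therefore has no block, and the replicate number was used as a block only in alternative fits. The fit was repeated with quantile or median-of-ratios scaling, with 0.1 as pseudocount, without the filter or with it at 5 TPM, with replicate number as a block, on only the 6 libraries compared, and without each library in turn. Surface libraries alone with the block, and surface wild 1 and 2 left out, were chosen after seeing the data.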

Additional observations from a re-analysis of the deposited data

How the results depend on the processing

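Across 21 alternatives, the 81 differences of single clock genes that passed gave 1573 alternative values: 1214 kept their direction and still passed, 358 kept their direction and no longer passed, and 1 reversed, cry2 between wild-caught and laboratory cave fish, at 0.02 (adjusted p = 0.972) with median-of-ratios scaling. The counts of called clock genes changed by more than 1.5 times as follows, and the cause was not tested beyond the change each setting makes. Median-of-ratios scaling gave 4 in cave fish between environments and 12 in the mean of both forms, and quantile normalization gave 4 in cave fish, 4 in surface fish and 11 in that mean. Between laboratory forms a pseudocount of 0.1 gave 4 and no filter gave 4, and in surface fish no filter gave 3. With only the 6 libraries compared, the counts were 3 between wild-caught forms, 2 between laboratory forms and 0 between surface groups. Without surface wild 1 and 2 they were 0 between wild-caught forms, 0 between surface groups and 3 in the mean difference between forms. Leaving out each library gave 1 to 10 between wild-caught forms, 2 to 10 between laboratory forms, 13 to 28 in cave fish, 1 to 9 in surface fish, 0 to 5 for the interaction, 6 to 14 for the mean form difference and 21 to 25 for the mean environment difference. The calls kept in all 12 such fits were 0, 1, 12, 1, 0, 6 and 20. The 12 and the 20 each hold roraa, rorb and rorcb, which entered the tests through the cave lab livers. They also hold clocka and per2, which entered through the laboratory livers of both forms. With the replicate block the counts were 6, 8, 25, 5, 0, 10 and 25 in the same order, the changed calls are given above except bhlhe40, which passed in the mean form difference (adjusted p = 0.0497), and per1b, which passed there (adjusted p = 0.0297), and surface libraries alone with the replicate block gave 0. TPM holds no depth, so the limit that read number sets on low genes such as rorb or roraa is unknown.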

Other observations

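A list of genes that follow the clock in mouse liver held 44 tested genes, of which 13 were lower and 2 higher in wild-caught fish in the mean of both forms, 34.1% called against 41.2% of all genes. Among the lower genes were KLF15, a transcription factor of amino acid use (-3.01 ± 0.49, adjusted p = 0.00138), the tyrosine aminotransferase gene tat (-2.29 ± 0.39, adjusted p = 0.00157) and the nuclear receptor gene pparda (-1.71 ± 0.30, adjusted p = 0.00177), and each passed after median-of-ratios scaling too. The gene hmgcra, of the rate-limiting enzyme of cholesterol synthesis, was higher in that mean (2.89 ± 0.58, adjusted p = 0.00334). The rise was in surface fish (5.80 ± 0.83, adjusted p = 0.00234), at 94.4 ± 84.8 TPM (SD, n = 3) in surface wild against 0.197 ± 0.206 in surface lab livers. Cave wild livers stood at 2.10 ± 3.60 TPM and cave lab livers at 1.12 ± 0.954. Its difference between forms depended on the environment (-5.82 ± 1.17, adjusted p = 0.0223), also after scaling (adjusted p = 0.0465). The SD was close to the mean in surface wild livers and above it in cave wild livers. For hmgcra, whether it entered the tests through the surface wild livers is not given here, nor are fits without a library. In cave fish namptb, whose product makes a precursor of NAD, was lower in wild-caught livers (-2.29 ± 0.38, adjusted p = 0.00242), as was the receptor gene pparab (-2.46 ± 0.46, adjusted p = 0.00353), the latter not after scaling (adjusted p = 0.0658). Between forms, mycb was higher in cave livers in laboratory fish (2.58 ± 0.67, adjusted p = 0.0359) and in the mean (2.38 ± 0.47, adjusted p = 0.00621). The cold-inducible gene cirbpa was lower in cave livers in the mean (-0.96 ± 0.22, adjusted p = 0.0120).

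For 42 listed names of genes that respond to light or stress in zebrafish, 30 genes were found by name, and 8 of those reached the level for testing. In the mean of both forms 5 of these were lower in wild-caught fish and 0 higher, 62.5% called against 41.2% of all genes. After median-of-ratios scaling 1 of the 8 was lower, against 12.7% lower and 26.6% called among all genes. That gene was lonrf1, lower in wild-caught fish by log2 differences of -1.35 in the mean, -1.56 in cave fish and -1.15 in surface fish. Its mean was 0.583 TPM (SD 0.254) in cave wild and 0.293 TPM (SD 0.214) in surface wild livers. In cave lab and surface lab livers its means were 3.64 and 1.93 TPM. These values leave no wild-caught liver at 1 TPM or more, so lonrf1 entered the tests through the laboratory livers. Its differences are therefore a description, and so are the counts of 5 and 1 that hold it. The catalase gene cat (-1.72 ± 0.41, adjusted p = 0.00678) and the repressor gene crema (-1.61 ± 0.49, adjusted p = 0.0219) were also lower in the mean, not after scaling (adjusted p = 0.0695 and 0.0940). Between forms none of the 8 passed by limma in wild-caught or laboratory fish on the TPM scale, with 1 in each at an unadjusted p under 0.05. After scaling 0 passed in either.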
